A study of Mus musculus with 3 samples.

Results

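Collagen genes were the subject: all rows of the deposited gene table whose symbol is Col, a number, the letter a and a number, which gave 44 of 55422 genes. Their unique molecular identifiers (UMIs, each standing for 1 captured transcript) were counted in 3 droplet libraries of mouse long bone cells at post natal week 3, all from untreated males labelled C57BL/6 (C57BL/6J for the wild-type mice in the methods). Metaphyseal replicates 1 and 2 held wild-type metaphyseal mesenchymal stromal cells, prepared, by the study's methods, by depleting lineage-marked, CD45+ and CD117+ cells from the metaphysis, the bone below the growth plate. Pdgfra-GFP replicate 1 held GFP+ cells sorted from heterozygous Pdgfra-H2B-GFP knock-in mice, in which the Pdgfra gene drives a nuclear GFP that marks most mesenchymal cells. The study compared septoclasts, cells that resorb cartilage at the edge of the growth plate, with the stromal cells around them. For the GFP+ cells the study's results name both metaphysis and epiphysis of femur and tibia, and its methods the metaphysis. The preparation, the genotype, the library and perhaps the dissected region change together between the metaphyseal and the Pdgfra-GFP samples. Differences between these samples therefore cannot be assigned to the sort, the genotype or the region. The number of animals behind each library was not given in the sources used here, so p-values measure the spread between these libraries only.

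Collagens are matrix proteins built of 3 chains wound into a triple helix, and each gene encodes 1 kind of chain. Fibrillar types (I, II, III, V, XI, XXIV, XXVII) form the fibres of bone and cartilage, and the fibril-associated types (IX, XII, XIV, XVI, XIX, XX, XXII) decorate them. Type IV forms the sheet of basement membranes under endothelium and around mural cells, types XV and XVIII bind to that sheet, types VI, VIII and X form beaded filaments or networks, and types XIII, XVII, XXIII and XXV span the cell membrane. In growing bone, type II collagen is made by chondrocytes, type X by the enlarged hypertrophic chondrocytes next to the metaphysis, and type I by osteoblasts that replace this cartilage.

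Cells were assigned to populations by marker genes that were not collagens, and a population name below stands for cells that looked like it by these markers. Septoclasts (Sstr2, Cd55, Otos, Mmp9, Fabp5, Cotl1, Egfr, Fbln1) numbered 11, 10 and 191 cells in metaphyseal replicate 1, metaphyseal replicate 2 and Pdgfra-GFP replicate 1. This order is kept for all lists of 3 values. Metaphyseal stromal cells (Postn, Wif1, Limch1, Grem1, Aspn, Mmp13, Pdgfrb) numbered 60, 52 and 1173, and Lepr stromal cells (Lepr, Cxcl12, Adipoq) 741, 678 and 4261. With the libraries summed, Postn, Wif1 and Limch1 were highest in the metaphyseal stromal gate. Its other markers were higher elsewhere, Grem1 in Lepr stromal cells, Mmp13 in septoclasts, and Aspn and Pdgfrb in mural cells. The septoclast markers were highest in the septoclast gate but for Cotl1, which was higher in haematopoietic and slightly higher in endothelial cells. Fabp5 stood at 2428 UMIs per 1000000 in septoclasts and 1948 in mural cells. There were 232, 198 and 2015 osteoblasts, 39, 36 and 1712 chondrocytes, 1122, 892 and 315 endothelial cells and 18, 19 and 61 mural cells. Fibroblasts (Dpt, Clec3b, Tnmd) were found in the Pdgfra-GFP library alone, with 412 cells. Although labelled mesenchymal stromal, the metaphyseal libraries were 47.0% and 44.4% endothelial by this gate. The Pdgfra-GFP library, though sorted for GFP+ cells, held 315 endothelial and 267 haematopoietic cells by these gates. How these came through the sort was not tested. Of all cells, 33 of the 212 septoclasts and 321 of the 1285 metaphyseal stromal cells lay near the limit of their gate.

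Levels are UMI counts scaled to 1000000 UMIs (CPM) of a population's summed UMIs in 1 library. The reads come from the 3′ ends of transcripts, so CPM is not scaled by gene length, and sequence differences near the 3′ ends can set different capture rates for different genes. The kept cells had a median of 6257, 6458 and 5354 UMIs, and the shared cell barcodes were 0 between the metaphyseal replicates and 9 and 10 between these and the Pdgfra-GFP library. Free RNA, measured in near-empty barcodes, was a source of background. Collagens took 2.89%, 3.30% and 5.01% of the UMIs there, and Col1a1 stood at 12837, 15268 and 21557 CPM and Col2a1 at 774, 972 and 6880.4 CPM. Haematopoietic cells, which should lack fibrillar collagens, showed Col1a1 at 90.2, 1814 and 876 CPM and Col2a1 at 4.01, 14.2 and 320.3 CPM. For Col1a1, Col1a2 and Col2a1, a value at or below the haematopoietic value of the same library was not told apart from background. The haematopoietic Col1a1 value was far higher in metaphyseal replicate 2 than in replicate 1, while their free RNA values were near each other. A Col1a1 value under this limit in metaphyseal replicate 2 thus need not be background. In endothelial cells the 8 osteoblast markers summed to 71.8, 77.7 and 860 CPM and the 9 chondrocyte markers to 14.7, 27.8 and 254 CPM. Both were highest in the Pdgfra-GFP library, and their part in the endothelial values was not tested.

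Promoters are shown for the members whose levels moved together, or apart within 1 collagen type, in the results that follow. RefSeq (GRCm38.p6) gave starts for 35 of the 44 members. Each sequence holds the 100 bases before the RefSeq start, 5′ to 3′ on the gene's strand, with capitals for the CCAAT box, the TATAAA motif and the GGGCGG motif on either strand. Gencode M21 puts the Col6a1 start at 76726168 on the minus strand, so the Col6a1 window falls inside the gene by that annotation. The windows of Col4a1 and Col4a2 each fall inside the other gene. Col4a2 and Col4a1 were called in the same direction in the septoclast, Lepr stromal, osteoblast and endothelial comparisons with metaphyseal stromal cells below. Those comparisons share the same metaphyseal stromal sums. In chondrocytes against osteoblasts Col4a2 was called and Col4a1 was not. Both genes lie head to head on chromosome 8, with annotated starts (Gencode M21, GRCm38) at 11312805 on the plus strand and 11312826 on the minus strand. Col6a1 and Col6a3, on chromosomes 10 and 1, encode chains of the same type VI molecule and differed from each other in several populations. Col8a1 marked arterial endothelium and stroma, Col5a3 mural cells, and Col10a1 hypertrophic cartilage.
Col4a2 (chr8:11312705-11312804, plus strand): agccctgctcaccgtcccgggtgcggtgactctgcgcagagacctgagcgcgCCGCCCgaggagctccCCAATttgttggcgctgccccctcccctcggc
Col4a1 (chr8:11312827-11312926, minus strand): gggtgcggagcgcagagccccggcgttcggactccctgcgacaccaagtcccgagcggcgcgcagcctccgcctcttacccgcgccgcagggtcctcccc
Col6a1 (chr10:76726045-76726144, minus strand): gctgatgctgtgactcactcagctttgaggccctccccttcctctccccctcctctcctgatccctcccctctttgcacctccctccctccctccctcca
Col6a3 (chr1:90843972-90844071, minus strand): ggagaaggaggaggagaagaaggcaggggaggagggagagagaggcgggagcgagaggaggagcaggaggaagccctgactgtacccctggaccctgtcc
Col8a1 (chr16:57754738-57754837, minus strand): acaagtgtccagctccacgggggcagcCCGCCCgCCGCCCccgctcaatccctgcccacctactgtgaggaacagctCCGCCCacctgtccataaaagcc
Col5a3 (chr9:20815068-20815167, minus strand): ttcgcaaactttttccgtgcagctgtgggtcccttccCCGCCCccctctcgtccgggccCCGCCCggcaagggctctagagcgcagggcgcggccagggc
Col10a1 (chr10:34389881-34389980, plus strand): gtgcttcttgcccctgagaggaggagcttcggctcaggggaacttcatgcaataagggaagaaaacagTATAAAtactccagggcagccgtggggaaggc
Of these 7 windows the one of Col10a1 held TATAAA, which stood in 5.56% of 32851 promoter windows and in 2 of the 35 members. CCAAT, seen here before Col4a2, stood in 18.9% of windows and in 4 members. GGGCGG stood in 24.7% of windows and in 18 members, with Col4a2, Col8a1 and Col5a3 among them. The window before Col4a1 and those before Col6a1 and Col6a3 held none of the 3 strings, which says only that these letters are not there.

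Collagen transcripts took the largest share of UMIs in osteoblasts, at 16.5% ± 0.745 (SD, n = 3 libraries). Chondrocytes followed with 8.37% ± 0.707, and fibroblasts had 6.26% in their single library. Metaphyseal stromal and mural cells lay near each other, at 1.45% ± 0.119 and 1.42% ± 0.120. Septoclasts (0.760% ± 0.0923) and Lepr stromal cells (0.744% ± 0.104) spent about the same share on collagens, and endothelial cells 0.494% ± 0.0839, against 0.190% ± 0.145 in haematopoietic cells. The ranges of osteoblasts, of chondrocytes, and of the metaphyseal stromal and mural pair did not overlap with those of any other population, while septoclasts overlapped with Lepr stromal cells.

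**Figure D1:**
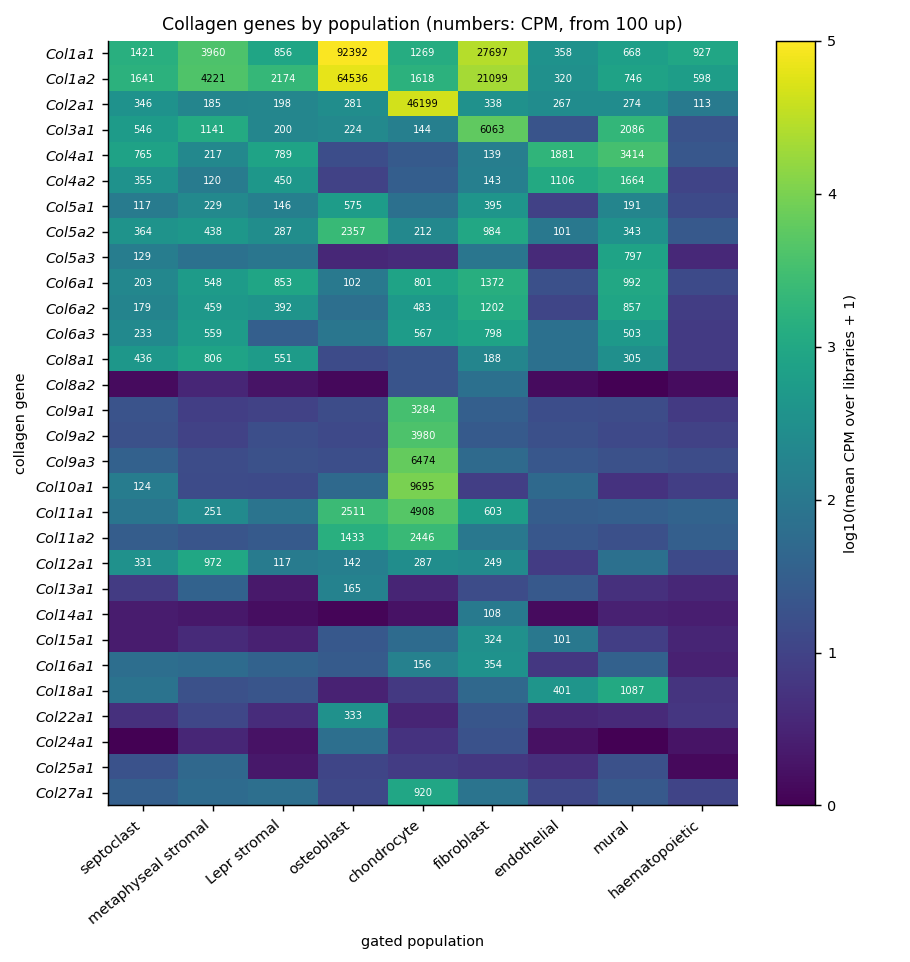
Mean level of the 30 collagen genes that reached 20 CPM in at least 1 population, by population, as log10 of mean CPM + 1; numbers print the mean CPM from 100 up. The cartilage genes (Col2a1, Col9a1, Col9a2, Col9a3, Col10a1) fill the chondrocyte column and the basement membrane genes (Col4a1, Col4a2, Col18a1) the endothelial and mural columns.

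All 44 genes had at least 1 UMI, but the totals ran from 4 for Col19a1 to 3049737 for Col1a1. Next after Col1a1 came Col1a2 with 2270383 UMIs and Col2a1 with 875981, and 20 genes had over 10000. At the other end, 11 genes had under 100 UMIs over all cells. Among them were the minor type IV chains Col4a3 (37), Col4a4 (60) and Col4a6 (11), the skin anchoring chains Col7a1 (41) and Col17a1 (28), and the further type VI chains Col6a4 (27), Col6a5 (93) and Col6a6 (18). Col19a1, Col20a1 (52) and Col28a1 (25) made up the rest. For these genes no population mean was above 4.98 CPM, the level of Col6a6 in fibroblasts. In 8 of them (all but Col6a4, Col6a5 and Col6a6) counts were below the filter of the test over populations, so they enter no comparison of these below. A little above them, Col4a5 peaked in fibroblasts at 5.75 CPM, Col23a1 in septoclasts at 15.4 ± 26.2 CPM and Col26a1 in chondrocytes at 13.7 ± 11.1 CPM. Col23a1 had 1 UMI in the 191 septoclasts of the Pdgfra-GFP library and none in the 10 of metaphyseal replicate 2. Its septoclast mean thus rests on metaphyseal replicate 1, with 11 septoclasts.

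Type I collagen (Col1a1 and Col1a2) was highest in osteoblasts. Col1a1 stood at 92601, 97776 and 86800.4 CPM in osteoblasts and at 27697 CPM in fibroblasts. Metaphyseal stromal cells had 4834, 3298 and 3748 CPM, septoclasts 978, 2025 and 1260.2 CPM and Lepr stromal cells 398, 499 and 1671 CPM. Septoclasts were below metaphyseal stromal cells in every library, and Lepr stromal cells lay below the haematopoietic value in metaphyseal replicate 2. Col1a2 ran in parallel, with 63813, 66673 and 63122 CPM in osteoblasts, 4409, 3784 and 4471 in metaphyseal stromal cells, 1839.6, 2047 and 2635 in Lepr stromal cells and 1316, 2125 and 1482 in septoclasts. In Lepr stromal cells Col1a2 exceeded Col1a1 in each library, and in osteoblasts Col1a1 exceeded Col1a2.

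Col3a1, the chain of the thin fibrils of vessels and soft tissue, had another order. It was highest in fibroblasts (6063 CPM), then in mural cells (1986, 2286 and 1985 CPM) and metaphyseal stromal cells (906, 655 and 1863 CPM). Septoclasts had 302, 498 and 837 CPM, Lepr stromal cells 125, 116 and 359.9 CPM and osteoblasts 156, 213 and 304 CPM, so that the gene was low where Col1a1 was highest. Of the type V chains, which set fibril width, Col5a1 and Col5a2 followed type I: Col5a2 reached 2498, 2494 and 2079 CPM and Col5a1 634, 646 and 444 CPM in osteoblasts. The third chain, Col5a3, did not. It stood at 818, 1054 and 520.0 CPM in mural cells, at 210.3, 55.3 and 121 CPM in septoclasts, 107, 104 and 65.0 CPM in Lepr stromal cells and 78.2, 86.8 and 49.0 CPM in metaphyseal stromal cells, and at 2.94, 0.759 and 4.04 CPM in osteoblasts. Mural cells were above each other population in every library, and septoclasts, Lepr and metaphyseal stromal cells overlapped.

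Col2a1, the main cartilage collagen, stood at 38081, 48564 and 51952 CPM in chondrocytes. In every other population but septoclasts it was lower in the metaphyseal libraries than in the Pdgfra-GFP library, where chondrocytes were 15.1% of cells. In metaphyseal stromal cells, for example, it was at 35.8, 60.4 and 459.9 CPM and in endothelial cells at 11.4, 18.9 and 771 CPM, of which 6.48, 12.0 and 542 CPM were left after the free RNA profile was subtracted. Septoclasts had 18.3, 664 and 356 CPM, with the highest value in metaphyseal replicate 2, where the gate held 10 cells. Col11a1 and Col11a2, whose chains join type II fibrils in cartilage and type V in bone, were high in both skeletal populations. Chondrocytes had 4544, 6135 and 4046 CPM of Col11a1 and 2376, 2932 and 2029 CPM of Col11a2, and osteoblasts 2567, 2671 and 2295 CPM and 1376, 1440.4 and 1482 CPM. The ranges did not overlap, and no other population passed 603 CPM of Col11a1, the fibroblast level. Of the minor fibrillar chains, Col27a1 was a chondrocyte gene (863, 965 and 932 CPM) and Col24a1 an osteoblast gene (75.5, 63.0 and 57.6 CPM). Col27a1 reached at most 83.1 CPM elsewhere (fibroblasts) and Col24a1 17.2 CPM (fibroblasts).

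The fibril-associated collagens were spread over different populations. All 3 chains of type IX, which sits on cartilage fibrils, were highest in chondrocytes, with 3349, 3705 and 2797 CPM of Col9a1, 4115, 4694 and 3131 CPM of Col9a2 and 7044, 7357 and 5021 CPM of Col9a3. Their means in other populations stayed at or below 52.1 CPM. Col12a1, found on type I fibrils of dense tissue and periosteum, was highest in metaphyseal stromal cells (1028, 1138 and 751 CPM), with 439, 354 and 200.2 CPM in septoclasts and 133, 135 and 83.6 CPM in Lepr stromal cells. The metaphyseal values did not overlap with either. Its relative Col14a1 was at 108 CPM in fibroblasts and at most 1.93 CPM as a mean elsewhere. Col16a1 was highest in fibroblasts (354 CPM) and then in chondrocytes (80.4, 123 and 265 CPM). Col22a1, named by the study among its osteoblast genes but used in no gate here, stood at 374, 360.2 and 265 CPM in osteoblasts and at most at 21.1 CPM in another population.

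The basement membrane chains Col4a1 and Col4a2 were highest in mural cells and next in endothelium. Col4a1 stood at 3555, 4408 and 2279 CPM in mural and 2095, 2126 and 1422 CPM in endothelial cells. Lepr stromal cells (880.5, 960.3 and 527 CPM) and septoclasts (1225, 553 and 518 CPM) overlapped and lay above metaphyseal stromal cells (200.3, 291 and 159 CPM). Osteoblasts were at 12.2, 15.2 and 15.3 CPM, near the haematopoietic level of 6.01, 49.6 and 10.5 CPM. Col18a1, a proteoglycan of basement membranes whose end is cut off as endostatin, was at 1310.3, 1039 and 913 CPM in mural and 350.1, 342 and 510.4 CPM in endothelial cells. It was higher in septoclasts (101, 44.3 and 91.0 CPM) than in metaphyseal (29.3, 5.66 and 14.7 CPM) or Lepr stromal cells (18.9, 26.4 and 13.7 CPM), with no overlap within these sets. Col15a1, the other multiplexin, was highest in fibroblasts (324 CPM) and endothelial cells (98.7, 92.1 and 113 CPM) and low in mural cells (0, 7.42 and 14.4 CPM).

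Col8a1, a short-chain network collagen of vessel walls, was a stromal gene here. It stood at 649.8, 968 and 801 CPM in metaphyseal stromal cells, 621, 709.9 and 320.5 CPM in Lepr stromal cells and 622, 354 and 331 CPM in septoclasts, which overlapped with the Lepr cells. Its partner Col8a2 was at 69.0 CPM in fibroblasts and 6.56, 12.4 and 38.1 CPM in chondrocytes. Mural cells were uneven for Col8a1, with 367, 37.1 and 511 CPM, the low value in metaphyseal replicate 2. Col10a1, the marker of hypertrophic cartilage, stood at 14778, 13034 and 1271 CPM in chondrocytes, lowest in the Pdgfra-GFP library. Within the chondrocyte gate, cells with the hypertrophic markers (Ihh, Panx3, Ibsp and Alpl among them) had 43167 CPM in metaphyseal replicate 1 (13 cells) and 7017 CPM in the Pdgfra-GFP library (203 cells). Of the Col10a1 UMIs in gated cells, 93.2%, 92.1% and 93.3% were in the chondrocyte gate and 4.88%, 0.352% and 4.55% in the osteoblast gate. Osteoblasts had 99.2, 9.11 and 40.9 CPM, septoclasts 9.14, 343 and 20.6 CPM and sinusoidal endothelium 9.08, 282 and 11.8 CPM, the last 2 with a single high library, metaphyseal replicate 2.

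Type VI collagen, the beaded filament around cells, is built of 1 chain each from Col6a1, Col6a2 and Col6a3. Col6a1 was highest in fibroblasts (1372 CPM), and stood at 1085, 979.5 and 910.0 CPM in mural cells, 867, 892 and 800.2 CPM in Lepr stromal cells and 472, 1003 and 928 CPM in chondrocytes. Col6a3 did not follow it in Lepr stromal cells, where it was at 22.1, 16.1 and 56.7 CPM. Metaphyseal stromal cells had 617, 604 and 455 CPM of Col6a3 and 585, 449 and 609 CPM of Col6a1, and septoclasts 283, 210.3 and 206 CPM and 293, 122 and 195 CPM. Thus Lepr stromal cells were above metaphyseal stromal cells for Col6a1 in every library and below them for Col6a3 in every library. The transmembrane collagens were low. Col13a1, found at cell to matrix contacts, was highest in osteoblasts (202, 182 and 111 CPM) and next in metaphyseal stromal cells (50.5, 30.2 and 28.8 CPM). Col25a1, known from neurons and the muscle junction, was at 53.7, 49.1 and 40.8 CPM in metaphyseal stromal cells and at 0.228, 1.98 and 1.13 CPM in Lepr stromal cells.

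Ratios of chains that share a molecule were compared across populations as a description, with no test. The ratio of Col1a1 to Col1a2 UMIs was 1.38 to 1.47 in osteoblasts, 1.31 in fibroblasts and 0.838 to 1.10 in metaphyseal stromal cells. It was 0.743 to 0.953 in septoclasts and 0.216 to 0.634 in Lepr stromal cells, or 0.164, 0.186 and 0.387 there after the free RNA was subtracted. Lepr stromal cells thus lay below the other stromal populations in all libraries. Col4a1 to Col4a2 was 1.62 to 1.76 in endothelial, 1.75 to 1.76 in Lepr stromal, 1.99 to 2.12 in mural and 1.61 to 2.53 in septoclast sums. It was 1.46 to 2.20 in metaphyseal stromal cells and 1.40 to 2.52 in osteoblasts, and 0.978 in fibroblasts and 1.38 and 0.515 in the chondrocytes of metaphyseal replicate 2 and the Pdgfra-GFP library. Col6a3 to Col6a1 was 0.747 to 1.34 in metaphyseal stromal cells and 0.969 to 1.73 in septoclasts, against 0.0180 to 0.0709 in Lepr stromal cells. Col6a1 to Col6a2 was 1.92 to 2.51 in Lepr stromal cells and 1.02 to 1.46 in mural cells. Col5a3 to Col5a1 was 3.77 to 4.58 in mural cells, 0.277 to 0.351 in metaphyseal stromal cells and 0.00117 to 0.00909 in osteoblasts. In cartilage the ratios were narrow, with 1.91 to 2.09 for Col11a1 to Col11a2, 0.789 to 0.893 for Col9a1 to Col9a2 and 1.57 to 1.71 for Col9a3 to Col9a2. Col3a1 to Col1a1 was 2.49 to 4.05 in mural cells, and 3.09, 4.89 and 39.9 after the free RNA was subtracted. Mural Col1a1 stood at 643, 564 and 797 CPM. In metaphyseal replicate 2 and the Pdgfra-GFP library it lay below the haematopoietic value and was not told apart from background by this limit. By haemoglobin and neutrophil genes, free RNA was put at 0.620% and 3.47% of mural UMIs in these libraries.

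**Figure D2:**
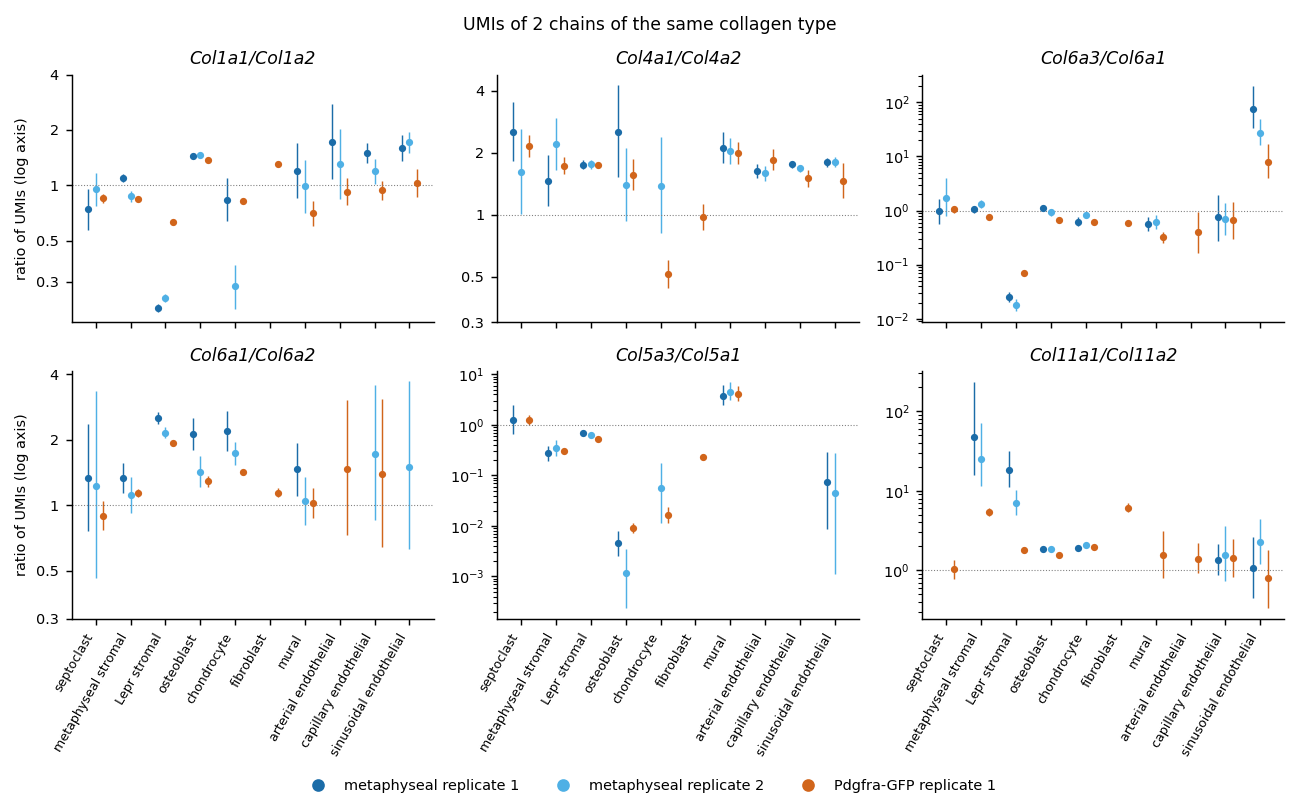
Ratio of the UMIs of 2 collagen genes in each population and library on a log axis, for 6 pairs; bars are 95% intervals from counting error and the dotted line marks a ratio of 1. Lepr stromal cells sit low for Col1a1/Col1a2 and for Col6a3/Col6a1, and mural cells high for Col5a3/Col5a1.

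Septoclasts differed from metaphyseal stromal cells in 10 of 36 collagen genes tested, 3 higher and 7 lower, where 4.91% of all tested genes were called (edgeR quasi-likelihood test, library as a block, Benjamini-Hochberg adjusted p under 0.05 over all genes). The other 8 members were below the low-count filter here and in the comparisons of the same populations below. The higher genes were those of basement membranes: Col18a1 (log2 fold change 2.38 ± 0.41, adjusted p = 0.000746), Col4a1 (1.72 ± 0.31, adjusted p = 0.00123) and Col4a2 (1.40 ± 0.29, adjusted p = 0.00352), where ± gives the standard error. The lower genes were the 3 type VI chains Col6a1 (-1.61 ± 0.46, adjusted p = 0.0439), Col6a2 (-1.52 ± 0.41, adjusted p = 0.0314) and Col6a3 (-1.41 ± 0.39, adjusted p = 0.0357), and Col12a1 (-1.80 ± 0.39, adjusted p = 0.00605). Col11a1 (-1.93 ± 0.52, adjusted p = 0.0286) and the membrane collagens Col13a1 (-3.84 ± 0.76, adjusted p = 0.00252) and Col25a1 (-2.001 ± 0.45, adjusted p = 0.00709) were lower too. For Col1a1 the difference did not pass the threshold (-1.70 ± 0.67, adjusted p = 0.188), nor for Col3a1 (-1.27 ± 0.68, adjusted p = 0.392) or Col8a1 (-1.12 ± 0.66, adjusted p = 0.456). With so few septoclasts these values do not show that the genes did not differ. The median log2 fold change was -0.42 over the tested collagen genes and -0.08 over all tested genes.

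Only 11 and 10 septoclasts stood behind the values of the metaphyseal libraries, and the calls depended on them. Without metaphyseal replicate 1 the test called 8 members and lost Col6a3 and Col11a1. Without metaphyseal replicate 2 it called 4 and lost Col6a1, Col6a2, Col6a3, Col11a1, Col12a1 and Col25a1. Without the Pdgfra-GFP library it called 8, and the 3 type VI chains, Col13a1, Col25a1 and Col18a1 (1.89, adjusted p = 0.232) were lost. The lower genes that lost their calls in these 3 fits kept log2 fold changes between -2.17 and -1.23. Col4a1 and Col4a2 were called with each library left out, but Col4a2 was not with cells thinned to 2000 UMIs (0.83, adjusted p = 0.193) or with sums of at least 20 cells (1.18, adjusted p = 0.107), which leaves septoclasts of the Pdgfra-GFP library alone. Where populations were taken from clusters in place of gates, the 7 lower genes were not called and their fold changes were smaller, from -1.33 for Col11a1 to -0.33 for Col6a3. The septoclast clusters held 165 gated septoclasts, 129 gated metaphyseal stromal cells and 89 cells in no gate. The part of this mix in the smaller fold changes was not tested. The 8 mural markers summed to 448, 210.3 and 654 CPM in septoclasts, 292, 360.3 and 322 CPM in metaphyseal stromal cells and 18077, 21171 and 21257 CPM in mural cells, with 2, 4 and 0 of them at 0 in septoclasts. The 8 endothelial markers summed to 27.4, 22.1 and 25.6 CPM in septoclasts and 92.8, 24.5 and 11.3 CPM in metaphyseal stromal cells, against 9049.8, 8439 and 7511 CPM in endothelial cells. Over the libraries both sums overlapped between septoclasts and metaphyseal stromal cells. Within libraries, septoclasts had the higher mural sum in metaphyseal replicate 1 and the Pdgfra-GFP library and the lower in metaphyseal replicate 2. Their endothelial sum was lower in both metaphyseal replicates and higher in the Pdgfra-GFP library. The part of these markers in the higher calls was not tested. The sums of the 8 osteoblast markers did not overlap. They were 2642, 3807 and 2359.5 CPM in septoclasts (2, 2 and 0 of them at 0) against 5225, 4686 and 4889.9 CPM in metaphyseal stromal cells. With libraries summed, Alpl of this list was higher in metaphyseal stromal cells (1783 CPM) than in osteoblasts (659.5 CPM) or septoclasts (629.4 CPM). The sum thus does not stand for osteoblast RNA alone. Its part in the lower calls, such as those of the osteoblast genes Col11a1 and Col13a1, was not tested. Of the other genes of the pathway, 1 of 31 collagen-processing genes was higher, where 4.91% of all genes were called. It was the cross-linking enzyme Loxl3 (log2 fold change 1.20 ± 0.32, adjusted p = 0.0269). Of 8 receptors tested, Itga1, an integrin chain that binds collagen, was 1 of 2 higher (348 ± 112 against 100.3 ± 16.3 CPM, log2 fold change 1.65 ± 0.33, adjusted p = 0.00262) and Ddr2, a kinase receptor for fibrillar collagen, was lower (59.7 ± 4.33 against 152 ± 10.5 CPM, log2 fold change -1.41 ± 0.29, adjusted p = 0.00351). Of 12 genes of collagen cleavage, the membrane protease Mmp14 was higher (2138 ± 104 against 651 ± 73.7 CPM, log2 fold change 1.59 ± 0.18, adjusted p = 4.47e-06) and its relative Mmp16 lower (8.81 ± 2.43 against 31.6 ± 8.91 CPM, log2 fold change -1.94 ± 0.45, adjusted p = 0.0102).

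Lepr stromal cells, the reticular cells that hold haematopoietic niches, differed from metaphyseal stromal cells in 10 of 36 collagen genes, 3 higher and 7 lower, where 23.7% of all genes were called. Col4a2 (1.88 ± 0.27, adjusted p = 8.38e-06) and Col4a1 (1.84 ± 0.30, adjusted p = 5.10e-05) were higher, as was Col26a1 at under 20 CPM. The lower genes were led by Col25a1 (-5.33 ± 0.36, adjusted p = 1.44e-10), Col13a1 (-4.34 ± 0.39, adjusted p = 1.29e-08) and Col6a3 (-4.11 ± 0.39, adjusted p = 2.55e-08), followed by Col12a1 (-3.07 ± 0.37, adjusted p = 8.36e-07). Fibrillar genes fell too: Col1a1 (-2.68 ± 0.68, adjusted p = 0.00458), Col3a1 (-2.64 ± 0.64, adjusted p = 0.00337) and Col11a1 (-1.65 ± 0.41, adjusted p = 0.00385). Without metaphyseal replicate 1 the call for Col1a1 was lost (-2.05, adjusted p = 0.0702), and without metaphyseal replicate 2 that for Col11a1 (-1.44, adjusted p = 0.0510). Col1a2 did not pass the threshold (-1.05 ± 0.56, adjusted p = 0.193), and neither did Col6a1 (0.65 ± 0.39, adjusted p = 0.263) or Col6a2 (-0.24 ± 0.35, adjusted p = 0.692), the partners of Col6a3. The median was -0.50 over the collagen genes and 0.10 over all genes. Septoclasts and Lepr stromal cells were compared with the same metaphyseal stromal sums, so that both sets of values share these controls. Col4a1 was 1.72 ± 0.31 in septoclasts and 1.84 ± 0.30 in Lepr stromal cells, Col12a1 -1.80 ± 0.39 and -3.07 ± 0.37, and Col6a3 -1.41 ± 0.39 and -4.11 ± 0.39.

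In Lepr stromal cells 6 processing genes were higher and 4 lower of 31, where 23.7% of all genes were called. Lox, which cross-links collagen, was higher (479 ± 142 against 81.6 ± 22.9 CPM, log2 fold change 2.56 ± 0.38, adjusted p = 1.40e-05), as was P3h2, a prolyl hydroxylase of type IV collagen (38.1 ± 8.81 against 4.46 ± 1.20 CPM, log2 fold change 3.32 ± 0.33, adjusted p = 4.65e-08). The lysyl hydroxylase Plod2 was lower (63.5 ± 14.0 against 162 ± 29.5 CPM, log2 fold change -1.37 ± 0.20, adjusted p = 1.18e-05). Of 8 receptors 3 were higher and 3 lower, among them Ddr1 (2.03) and Itga1 (1.91) upward and Itga10 (-3.16) downward. Of 12 cleavage genes 1 was higher and 6 were lower, with the inhibitor Timp1 (-3.18) and the gelatinase Mmp2 (-3.03) and Mmp16 (-2.65) changed most.

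**Figure D3:**
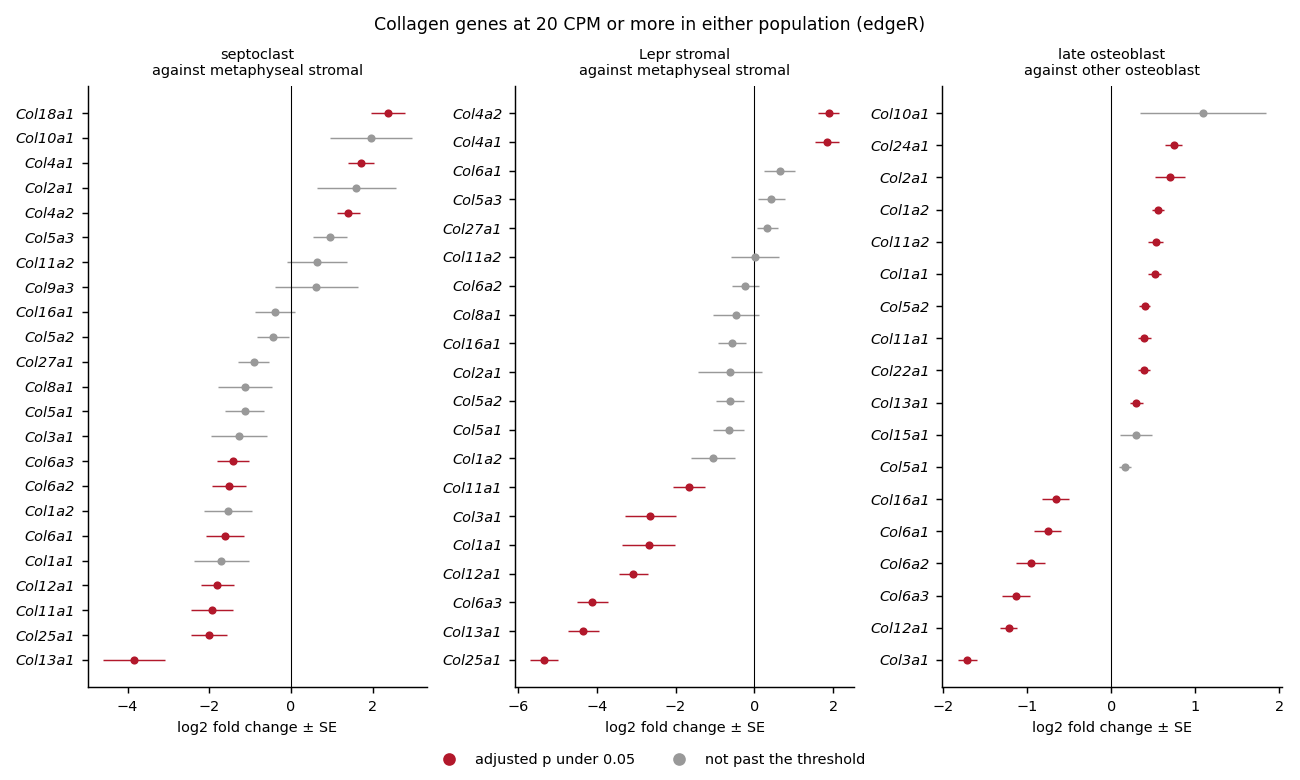
Log2 fold change ± SE of the collagen genes with at least 20 CPM for septoclasts and Lepr stromal cells against metaphyseal stromal cells and for late against other osteoblasts; red marks an adjusted p under 0.05. Col4a1 and Col4a2 are higher in both the septoclast and the Lepr stromal panel, and Col6a3 and Col12a1 lower.

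Osteoblasts differed from metaphyseal stromal cells in 24 of 36 collagen genes, 11 higher and 13 lower, where 32.9% of all genes were called. The largest rise was that of Col11a2 (7.34 ± 0.67, adjusted p = 8.67e-09), followed by Col22a1 (5.99 ± 0.39, adjusted p = 6.82e-11), Col24a1 (5.41 ± 0.49, adjusted p = 4.65e-08), Col1a1 (5.25 ± 0.75, adjusted p = 6.28e-06) and Col1a2 (4.67 ± 0.64, adjusted p = 3.63e-06). Col11a1 (4.09 ± 0.44), Col15a1 (3.42 ± 0.40), Col5a2 (3.18 ± 0.38), Col13a1 (2.99 ± 0.29) and Col5a1 (2.09 ± 0.40) rose as well. The call for Col10a1 (2.53 ± 0.83, adjusted p = 0.0210) was lost without metaphyseal replicate 1 (1.83, adjusted p = 0.127) and without the Pdgfra-GFP library (2.97, adjusted p = 0.0549). Col8a1 fell most (-5.30 ± 0.71, adjusted p = 2.66e-06), before Col5a3 (-3.47 ± 0.42), Col4a1 (-3.03 ± 0.32) and Col4a2 (-2.92 ± 0.29). Type VI chains (-1.67 ± 0.41 for Col6a1, -2.07 ± 0.36 for Col6a2, -1.88 ± 0.35 for Col6a3), Col12a1 (-2.04 ± 0.36), Col27a1 (-1.45 ± 0.28) and Col25a1 (-1.38 ± 0.27) fell less. Type V was therefore split, with Col5a1 and Col5a2 higher and Col5a3 lower. Another 3 called genes were under 20 CPM in both populations. The medians were 0.01 over the collagen genes and -0.00338 over all genes.

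Most of the processing machinery rose with these genes: 23 of 31 processing genes were higher in osteoblasts and 2 lower, where 32.9% of all genes were called. Lox (697 ± 105 against 81.6 ± 22.9 CPM, log2 fold change 3.89 ± 0.39, adjusted p = 3.97e-08) and Creb3l1, a transcription factor of the secretory pathway known to act on type I collagen genes (516 ± 93.6 against 73.5 ± 4.67 CPM, log2 fold change 3.67 ± 0.35, adjusted p = 1.39e-08), rose, and the elastin-linked Loxl1 fell (11.7 ± 7.05 against 302 ± 59.1 CPM, log2 fold change -3.91 ± 0.40, adjusted p = 5.35e-08). Among 8 receptors 2 were higher and 1 lower (Itga10 2.08, Mrc2 1.01, Itga1 -2.93). In CPM, Mrc2 was near equal, at 94.6 ± 6.36 in osteoblasts against 84.5 ± 11.3 in metaphyseal stromal cells. Here as in the other comparisons, fold changes include the test's TMM scaling between sums, which CPM lacks, so the measures can differ. Of 12 cleavage genes 4 were higher and 5 lower, with Mmp16 (2.73) and Timp1 (1.90) higher and Timp3 (-2.70) lower.

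Late osteoblasts, the cells with at least 2 of the osteocyte-linked markers Dmp1, Mepe, Phex, Sost and Fgf23, numbered 64, 46 and 319. They spent 19.8% ± 2.348 of UMIs on collagens against 15.4% ± 0.724 in other osteoblasts, and the 2 ranges did not overlap. Late cells were also deeper, with medians of 23196, 24256.5 and 13072 UMIs against 20820, 19996 and 10634. The 8 osteoblast markers, Dmp1 and Phex among them, summed to 33239, 35871 and 118822 CPM in late and 23322, 24767 and 111039 CPM in other osteoblasts. The part of depth and of gate purity in the values below was not tested. Col1a1 stood at 118610.0, 120394 and 92765 CPM in late and 81996, 90495 and 85459.6 CPM in other osteoblasts, higher within each library. Of 26 collagen genes tested 15 were called, 9 higher and 6 lower, where 4.43% of all genes were called. The higher genes were Col24a1 (0.74 ± 0.10, adjusted p = 0.000286), Col2a1 (0.69 ± 0.18, adjusted p = 0.0329), Col1a2 (0.56 ± 0.07, adjusted p = 0.000169), Col11a2 (0.52 ± 0.09, adjusted p = 0.00232), Col1a1 (0.52 ± 0.08, adjusted p = 0.000473), Col5a2 (0.40 ± 0.06), Col11a1 (0.39 ± 0.08), Col22a1 (0.39 ± 0.07) and Col13a1 (0.30 ± 0.08). The lower genes were Col3a1 (-1.72 ± 0.11, adjusted p = 5.60e-08), Col12a1 (-1.22 ± 0.10, adjusted p = 7.55e-07), the type VI chains Col6a3 (-1.13 ± 0.17), Col6a2 (-0.96 ± 0.18) and Col6a1 (-0.76 ± 0.16), and Col16a1 (-0.66 ± 0.16). The medians were 0.28 over the collagen genes and 0.00482 over all genes. Col2a1 stood at 205, 131 and 619.6 CPM in late and 75.2, 91.3 and 632 CPM in other osteoblasts, so it was higher in the metaphyseal libraries but not in the Pdgfra-GFP library.

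Without the library as a block 0 of the 15 were called in edgeR (11 had an unadjusted p under 0.05), and with DESeq2's Wald test 8. The fold changes without the block ran from -1.69 for Col3a1 to 0.72 for Col24a1, and that of Col2a1 was 0.36. Without metaphyseal replicate 2 the count was 6, 1 higher and 5 lower, with Col1a1 (0.48, adjusted p = 0.121), Col1a2, Col2a1, Col5a2, Col11a1, Col11a2, Col13a1, Col16a1 and Col22a1 past the threshold no longer. Without metaphyseal replicate 1 the calls for Col2a1 and Col13a1 were lost, and without the Pdgfra-GFP library that for Col16a1. Of the pathway lists, 4 of 27 processing genes were higher, where 4.43% of all genes were called. Named by the rule were Lox (785 ± 109 against 669 ± 98.0 CPM, log2 fold change 0.39 ± 0.06, adjusted p = 0.000785), Adamts2 (0.35) and Bmp1 (0.32), the last 2 being proteases that trim procollagen. Mrc2, an uptake receptor for collagen (0.38), and Timp2 (0.43) were the 1 of 7 receptors and 1 of 10 cleavage genes that rose, and none of the 3 lists had a lower gene at this threshold.

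Chondrocytes differed from osteoblasts in 23 of 36 collagen genes, 16 higher and 7 lower, where 35.2% of all genes were called. The type IX chains led with Col9a3 (9.70 ± 0.84, adjusted p = 1.76e-09), Col9a2 (9.19 ± 0.71, adjusted p = 2.50e-10) and Col9a1 (8.20 ± 0.69, adjusted p = 1.07e-09), then Col2a1 (8.03 ± 0.98, adjusted p = 4.64e-07), Col10a1 (6.78 ± 0.88, adjusted p = 1.08e-06) and Col27a1 (6.03 ± 0.29, adjusted p = 1.75e-13). Type VI was higher in chondrocytes in all 3 chains (2.65 ± 0.42 for Col6a1, 2.497 ± 0.36 for Col6a2 and 2.33 ± 0.36 for Col6a3), as were Col16a1 (2.24 ± 0.33) and Col4a2 (1.57 ± 0.30), while its partner Col4a1 did not pass the threshold (0.38 ± 0.34, adjusted p = 0.431). Col15a1 (0.93 ± 0.27, adjusted p = 0.00879) lost its call without metaphyseal replicate 2 (0.64, adjusted p = 0.116), and another 4 called genes were under 20 CPM in both populations. Lower were Col1a1 (-7.29 ± 0.84, adjusted p = 2.04e-07), Col22a1 (-7.19 ± 0.43), Col1a2 (-6.31 ± 0.71), Col13a1 (-5.20 ± 0.35), Col5a2 (-3.69 ± 0.39), Col24a1 (-3.20 ± 0.39) and Col5a1 (-3.14 ± 0.42). Col11a1 (0.66 ± 0.38, adjusted p = 0.20) and Col11a2 (0.54 ± 0.47, adjusted p = 0.408), high in both, did not pass the threshold. The medians were 0.66 over the collagen genes and 0.03 over all genes. The hypertrophic markers Ibsp and Alpl are osteoblast gate markers too. Hypertrophic cells were sought in the chondrocyte gate only, so whether any fell in the osteoblast gate was not counted. Their part in the Col10a1 value was not tested.

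Of 31 processing genes 10 were higher and 12 lower in chondrocytes, where 35.2% of all genes were called. The galactosyltransferase Colgalt2 (69.6 ± 11.6 against 0.819 ± 0.303 CPM, log2 fold change 5.69 ± 0.28, adjusted p = 7.17e-13), P3h2 (5.17) and the propeptidase enhancer Pcolce2 (4.78) changed most. Of 8 receptors 2 were higher and 5 lower, with Itga11, an integrin chain for fibrillar collagen (0.875 ± 1.52 against 26.1 ± 4.55 CPM, log2 fold change -3.49 ± 0.39, adjusted p = 1.08e-07), and Mrc2 (-1.90) lower and Itga1 (1.91) higher. Of 12 cleavage genes 1 was higher, the inhibitor Timp3 (3.03), and 8 were lower, Mmp16 (-3.51) and Mmp2 (-2.52) most.

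Chondrocyte subsets are given as values, since most of their cells came from 1 library. In the Pdgfra-GFP library Col2a1 was at 59245 CPM in growth-plate cells (Matn1, Ucma), 58186 in hypertrophic cells, 38031 in cells with Efemp1 and Sfrp5 and 46835 in superficial cells (Prg4, Cilp). Col9a1 was likewise highest in growth-plate cells, with 3744, 2540.0, 2347 and 2211 CPM, and Col10a1 in hypertrophic cells, with 167, 7017, 112 and 71.9 CPM. In the same order of subsets, Col6a1 was at 849.7, 1184, 632 and 1046 CPM, Col1a2 at 2425, 8066, 1855 and 5671 CPM and Col12a1 at 575, 355, 280.0 and 214 CPM. Col6a1 and Col1a2 were thus highest in hypertrophic cells and Col12a1 in growth-plate cells of this library. The growth-plate and hypertrophic marker lists share Ihh, Panx3, Pth1r and Mef2c. Ibsp and Alpl, which only the hypertrophic list holds, are markers of the osteoblast gate too. The part of osteoblast RNA in the hypertrophic values, such as that of Col1a2, was not tested. With libraries summed, the superficial markers Prg4 and Cilp2 were higher in fibroblasts (2562 and 1154 CPM) than in chondrocytes (1222 and 434.7 CPM). Cilp was lower in fibroblasts (273.9 against 321.7 CPM). How well superficial cells were told apart from fibroblasts was not tested.

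Fibroblasts were present in 1 library, so ratios to the metaphyseal stromal cells of that library are given with exact 95% intervals that cover counting error only, and no test was made. Of 28 collagen genes with at least 20 CPM, 15 were more than 2-fold higher and 4 more than 2-fold lower, where 27.6% of 6364 genes at this level lay past 2-fold (10.6% higher and 17.0% lower). Col15a1 had the largest ratio, 58.6 (42.8 to 82.3), followed by Col14a1 with 32.1 (21.3 to 50.5) and Col8a2 with 13.1 (9.22 to 19.0). Type I chains came next, Col1a1 at 7.39 (7.29 to 7.49) and Col1a2 at 4.72 (4.65 to 4.78), with Col16a1 at 5.09 (4.57 to 5.69), Col3a1 at 3.25 (3.18 to 3.33) and Col18a1 at 3.23 (2.47 to 4.21). The other 7 higher genes had ratios from 2.08 (Col22a1) to 2.56 (Col11a1), the 2 main type VI chains and Col5a1 and Col5a2 among them. Lower were Col25a1 at 0.132 (0.0710 to 0.224), Col8a1 at 0.234 (0.213 to 0.257), Col12a1 at 0.332 (0.305 to 0.360) and Col13a1 at 0.466 (0.316 to 0.669). The type VIII chains thus moved in opposite directions, Col8a2 higher and Col8a1 lower, and so did the related Col14a1 and Col12a1. The median ratio was 2.16 over the collagen genes and 0.812 over all genes.

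Endothelial cells differed from metaphyseal stromal cells in 23 of 36 collagen genes, 4 higher and 19 lower, where 40.4% of all genes were called. All 4 higher genes encode basement membrane collagens: Col15a1 (4.94 ± 0.39, adjusted p = 2.34e-10), Col18a1 (4.68 ± 0.36, adjusted p = 9.72e-11), Col4a2 (3.24 ± 0.28, adjusted p = 8.60e-10) and Col4a1 (3.16 ± 0.32, adjusted p = 1.14e-08). The lower genes were led by Col12a1 (-7.55 ± 0.49, adjusted p = 7.96e-12), Col3a1 (-6.87 ± 0.81, adjusted p = 1.59e-07), Col6a2 (-6.04 ± 0.46, adjusted p = 9.32e-11) and Col6a1 (-5.51 ± 0.50, adjusted p = 2.24e-09). Further down came Col5a3 (-5.41 ± 0.54), Col5a1 (-4.88 ± 0.49), Col1a2 (-4.25 ± 0.64), Col16a1 (-3.92 ± 0.47), Col1a1 (-3.92 ± 0.71), Col8a1 (-3.83 ± 0.66), Col11a1 (-3.45 ± 0.45) and Col25a1 (-3.36 ± 0.33). Col6a3 (-3.01 ± 0.37), Col27a1 (-2.46 ± 0.30) and Col5a2 (-2.09 ± 0.37) fell least of those with 20 CPM, and another 4 called genes were under that level. Endothelial Col1a1 stood at 169, 194 and 710.5 CPM, below the haematopoietic value in metaphyseal replicate 2 and the Pdgfra-GFP library. The medians were -2.35 over the collagen genes and 0.04 over all genes. Of 31 processing genes 3 were higher and 21 lower (Loxl1 -6.70, Adamts2 -5.86 and Pcolce -4.97). All 8 tested receptors were called, 3 higher with Itga2 first (65.2 ± 39.6 against 0.588 ± 0.904 CPM, log2 fold change 7.06 ± 0.56, adjusted p = 2.27e-10) and 5 lower (Itga11 -7.14, Ddr2 -6.29). Of 12 cleavage genes 4 were higher and 7 lower (Fap -6.74, Mmp16 -5.84, Ctsk -4.97).

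Within endothelium, Col8a1 and Col18a1 were highest in arterial cells (Gja4, Gja5, Sema3g), Col13a1 in capillary cells (Aplnr, Ramp3) and Col6a3 in sinusoidal cells (Stab2, Mrc1, Stab1). Col18a1 was high in capillary cells too, and Col13a1 was also present in arterial cells. There were 82, 64 and 91 arterial, 513, 411 and 110 capillary and 439, 359 and 83 sinusoidal cells. Col8a1 was at 359.9, 372 and 367 CPM in arterial, 4.15, 15.6 and 26.9 in capillary and 2.76, 3.62 and 9.46 in sinusoidal cells. Col18a1 stepped down from 1481, 1384 and 1148 CPM through 359.8, 420.3 and 375 to 39.5, 48.4 and 14.2 CPM, and Col15a1 from 214, 155 and 179 through 133, 146 and 134 to 21.7, 19.4 and 18.9 CPM. For each of these 3 genes the lowest arterial value lay above the highest sinusoidal value. Col13a1 was at 24.6, 17.4 and 18.6 CPM in arterial, 41.8, 41.3 and 37.9 in capillary and 1.97, 4.52 and 2.36 in sinusoidal cells, with no overlap. Col6a3 was at 1.64, 0 and 18.6 CPM in arterial, 2.67, 6.32 and 19.0 in capillary and 174, 184 and 184 in sinusoidal cells. Sinusoidal Col6a1 stood at 2.37, 6.78 and 23.6 CPM and Col6a2 at 1.18, 4.52 and 21.3 CPM, so Col6a3 was present there with little of its partner chains, and its ratio to Col6a1 was 7.80 to 73.5. The 8 mural markers were higher in sinusoidal cells too, at 1230.2, 1195 and 1175 CPM (2, 3 and 2 of them at 0), against 513, 499 and 365 in capillary and 394, 398 and 315 CPM in arterial cells, and their part in the Col6a3 value was not tested. In endothelial cells as a whole, with libraries summed, Mcam stood at 280 CPM, Abcc9 at 256 and Kcnj8 at 199. The other markers of the list were at most at 4.11 CPM there (Rgs5, at 12970 CPM in mural cells). In mural cells the ratio of Col6a3 to Col6a1 was 0.321 to 0.621. Haematopoietic cells had 3.01, 2.83 and 12.0 CPM of Col6a3.

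**Figure D4:**
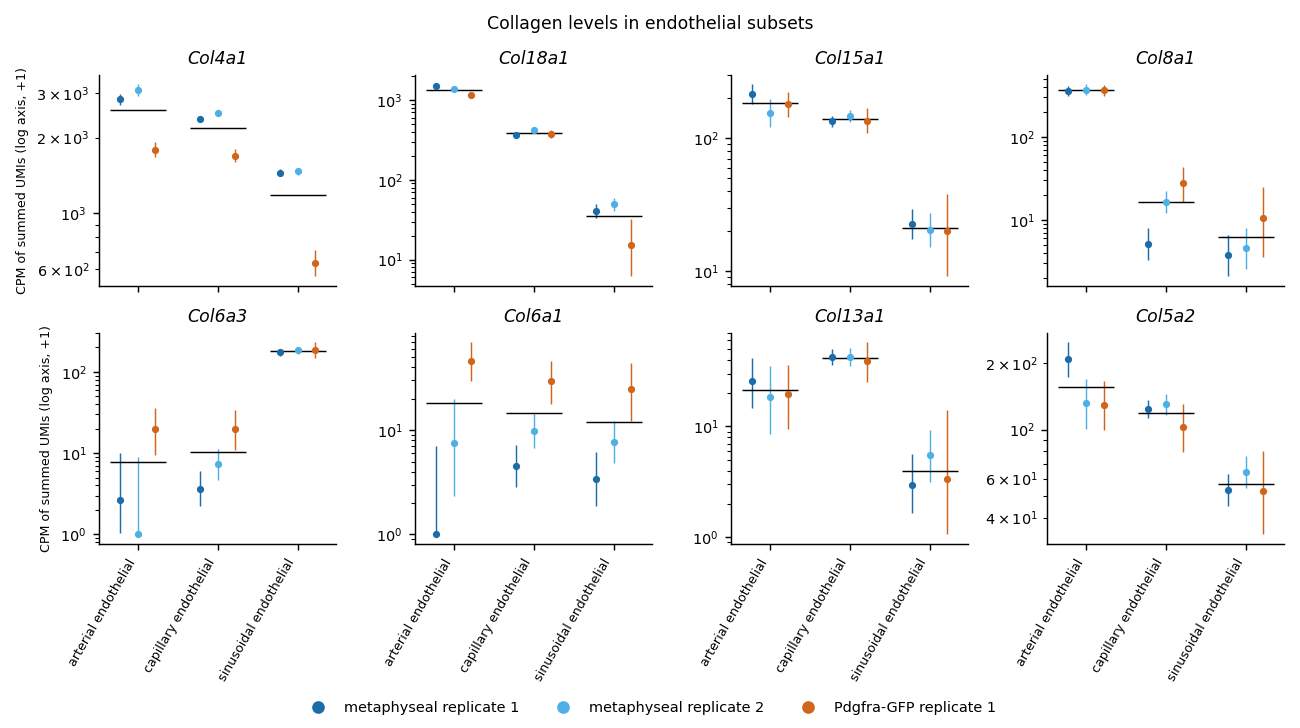
Level of 8 collagen genes in arterial, capillary and sinusoidal endothelial cells as CPM + 1 on a log axis; points are libraries, short lines means and bars 95% Poisson intervals. Col8a1, Col18a1 and Col15a1 are highest in arterial cells and Col6a3 in sinusoidal cells in all 3 libraries.

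Arterial against sinusoidal cells gave 12 calls among 20 collagen genes tested, 8 higher and 4 lower, where 38.9% of all genes were called. Higher were Col8a1 (6.56 ± 0.32, adjusted p = 1.73e-11), Col18a1 (5.17 ± 0.20, adjusted p = 9.72e-13), Col15a1 (3.18 ± 0.16, adjusted p = 2.76e-11), Col13a1 (2.74 ± 0.42, adjusted p = 4.71e-05), Col5a2 (1.54 ± 0.16, adjusted p = 5.62e-07), Col4a2 (1.17 ± 0.13) and Col4a1 (1.16 ± 0.12). Col6a3 was lower (-4.87 ± 0.43, adjusted p = 5.50e-08). Col1a1 (-0.77 ± 0.23, adjusted p = 0.0118) and Col1a2 (-0.55 ± 0.20, adjusted p = 0.0402) were lower, with arterial Col1a1 at 87.1, 113 and 569 CPM, below the haematopoietic value of each library, and lost their calls without metaphyseal replicate 2, Col1a2 also without replicate 1. Col2a1 (1.51 ± 0.42, adjusted p = 0.00836) and Col10a1 (-3.10 ± 1.16, adjusted p = 0.0428) each rested on 1 library. Arterial Col2a1 was at 4.93, 26.1 and 1752 CPM and its fold change was -0.08 without the Pdgfra-GFP library, and Col10a1 gave 0.35 without metaphyseal replicate 2. The 9 chondrocyte markers summed to 4.93, 8.71 and 462 CPM in arterial and 9.08, 50.2 and 179.7 CPM in sinusoidal cells, high in the Pdgfra-GFP library too, and their part in the Col2a1 value was not tested. The median was 0.90 over the collagen genes and -0.00538 over all genes.

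Capillary against sinusoidal cells gave 9 calls of 20, 7 higher and 2 lower, where 34.1% of all genes were called. Col13a1 (3.67 ± 0.27, adjusted p = 8.34e-09), Col18a1 (3.34 ± 0.19, adjusted p = 2.43e-10), Col15a1 (2.73 ± 0.14, adjusted p = 9.52e-11), Col5a2 (1.08 ± 0.14, adjusted p = 8.01e-06), Col4a2 (0.96 ± 0.13) and Col4a1 (0.91 ± 0.12) were higher, with Col8a1 under 20 CPM in both. Col6a3 was lower (-4.93 ± 0.30, adjusted p = 5.93e-10), and Col10a1 (-1.88 ± 0.70, adjusted p = 0.0459) again rested on metaphyseal replicate 2, with 1.35 when it was left out. Arterial against capillary cells gave 8 calls of 20, 6 higher and 2 lower, where 24.5% of all genes were called. Col8a1 (5.03 ± 0.25, adjusted p = 1.33e-10) and Col18a1 (1.83 ± 0.16, adjusted p = 8.37e-08) were called with each library left out. Col15a1 (0.45 ± 0.12), Col5a2 (0.46 ± 0.14), Col1a2 (-0.63 ± 0.20) and Col13a1 (-0.93 ± 0.26) were not called without metaphyseal replicate 1, nor Col13a1 and Col9a1 (1.84 ± 0.53) without replicate 2. Without the Pdgfra-GFP library, Col9a1 (1.20) and Col2a1 (1.64 ± 0.42 with all libraries, -0.05 without it) were not called. With doublets removed the values were 0.46 (adjusted p = 0.691) for Col9a1 and -0.18 for Col2a1. The medians over the collagen genes were 0.33 for capillary against sinusoidal and 0.41 for arterial against capillary cells, against 0.0015 and -0.0107 over all genes.

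Other genes of the pathway were called between the subsets as well. Of all genes, 38.9% were called for arterial against sinusoidal, 34.1% for capillary against sinusoidal and 24.5% for arterial against capillary cells. The list counts below are to be read beside these shares. Sinusoidal cells had more of the collagen-binding integrin chain Itga1 than arterial cells (arterial values first, 91.8 ± 16.0 against 361 ± 38.5 CPM, log2 fold change -1.96 ± 0.13, adjusted p = 7.80e-10), more cathepsin L, Ctsl (493 ± 80.3 against 2711 ± 954 CPM, log2 fold change -2.43 ± 0.17, adjusted p = 2.76e-09), and more of the cross-linking enzyme Loxl2 (8.49 ± 3.36 against 70.5 ± 12.2 CPM, log2 fold change -3.12 ± 0.29, adjusted p = 8.22e-08). P4ha2, a prolyl hydroxylase, was higher in arterial than in sinusoidal (3.38) and capillary cells (2.36), and Mmp2 higher in arterial (1.09) and capillary (1.37) than in sinusoidal cells. Bmp1 (1.68), Colgalt2 (1.75) and Itga2 (0.88) were higher in capillary than in sinusoidal cells. Over the 20 processing genes tested, 4 were higher and 5 lower in arterial against sinusoidal cells, 5 and 2 in capillary against sinusoidal cells, and 3 and 5 in arterial against capillary cells. For the 8 cleavage genes these counts were 3 and 3, 3 and 3, and 2 and 3, and for the 3 receptors 1 and 1, 2 and 1, and 0 and 1.

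Mural cells (pericytes and smooth muscle cells) differed from endothelial cells in 14 of 36 collagen genes, 13 higher and 1 lower, where 21.6% of all genes were called. The sums held 18, 19 and 61 cells. Col5a3 rose most (8.76 ± 0.51, adjusted p = 4.99e-12), followed by Col3a1 (7.85 ± 0.84, adjusted p = 1.28e-07), Col6a2 (6.73 ± 0.47, adjusted p = 1.25e-10), Col6a1 (6.18 ± 0.52, adjusted p = 2.35e-09), Col5a1 (4.37 ± 0.55, adjusted p = 1.25e-06) and Col12a1 (3.64 ± 0.61, adjusted p = 7.68e-05). Col6a3 (2.62 ± 0.39), Col5a2 (1.505 ± 0.39) and Col18a1 (1.21 ± 0.27) rose by less. Col8a1 (2.12 ± 0.68, adjusted p = 0.0266) was not called without metaphyseal replicate 1 (1.68, adjusted p = 0.133). Col16a1 (2.79 ± 0.86, adjusted p = 0.0201) was not called without metaphyseal replicate 1 (2.38, adjusted p = 0.105) or replicate 2 (1.94, adjusted p = 0.132). Another 2 called genes were under 20 CPM. Of these, Col6a4 had 0, 0 and 3 UMIs in mural cells, or 8.67 CPM in the Pdgfra-GFP library. In other population sums it reached at most 0.988 CPM. Col6a4 thus entered the test through the mural cells of 1 library, and its call is not taken as a result. Col15a1 was the gene that fell (-3.84 ± 0.59, adjusted p = 2.27e-05), opposite to Col18a1. Col4a1 (0.62 ± 0.29, adjusted p = 0.140) and Col4a2 (0.35 ± 0.25, adjusted p = 0.380), high in both populations, did not pass the threshold. The median was 1.02 over the collagen genes and -0.23 over all genes, or -0.05 over all genes with DESeq2's size factors.

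In mural cells 10 of 31 processing genes were higher and 3 lower, where 21.6% of all genes were called. They were led by the procollagen protease Adamts2 (484 ± 137 against 5.78 ± 4.39 CPM, log2 fold change 6.48 ± 0.49, adjusted p = 3.83e-10), Loxl3 (4.44) and Loxl1 (4.17). Of 8 receptors 5 were higher and 1 lower, with Ddr1 (4.89) and Mrc2 (4.84) higher and Itga2 (-5.11) lower. Of 12 cleavage genes 6 were higher and 4 lower, among them Ctsk (4.08) and Fap (3.87). Mmp8, a neutrophil collagenase, was called as well, at 66.1 ± 102 CPM in mural cells, a spread wider than its mean, and the 6 haematopoietic markers summed to 325, 14.8 and 26.0 CPM there, highest in metaphyseal replicate 1.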

How the data were processed

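Per the labels and the study's methods, the authors trimmed reads with fastp, ran STARsolo against mm10, with the H2B-GFP sequence added to the Gencode genes, and deposited unfiltered UMI counts per gene and barcode for the 3 libraries (25243314, 22082735 and 91747759 UMIs). The following was computed from these counts. Cells were kept with at least 1500 genes (metaphyseal) or 1000 genes (Pdgfra-GFP), at most 15% mitochondrial and 30% ribosomal UMIs, leaving 2389, 2011 and 11319 cells (Python 3.11.15, scanpy 1.11.5). Scrublet called 25, 18 and 184 doublets, which were kept and left out in an alternative. These were 1.05%, 0.895% and 1.63% of cells, where the cell numbers set an expected 1.91%, 1.61% and 9.06%. The alternative may thus leave doublets in, most of all in the Pdgfra-GFP library. A cell joined the population with its highest marker score if that was at least 0.25 and 0.05 above the next; no collagen gene was a marker. UMIs were summed per library and population of at least 10 cells and tested with edgeR 4.0.16 (R 4.3.3, quasi-likelihood test, TMM, filterByExpr, library as a block), in 1 fit over 8 populations and in separate fits for subsets, with Benjamini-Hochberg adjustment over all genes and a threshold of 0.05. The script was tested on simulated data. DESeq2 1.42.0, other gates, clusters, cell filters, thinning to 2000 UMIs and subtraction of free RNA (barcodes under 100 UMIs) were alternatives. Fibroblasts were in 1 library, so the planned test was replaced by ratios. Counting intervals are 95% (exact Poisson or binomial) and cover counting error only. Named were all called members with at least 20 CPM in a population compared, and at most 3 genes per pathway list by absolute fold change; Mmp13, a gate marker, was left out of its list. Members, lists and comparisons were chosen with earlier results of these data known.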

Additional observations from a re-analysis of the deposited data

Results flagged for a closer look

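Col8a1 was set apart because its difference between chondrocytes and osteoblasts went opposite ways in the libraries. Its log2 ratio of chondrocyte to osteoblast CPM was 1.38 in the Pdgfra-GFP library (57.4 against 21.98 CPM). In metaphyseal replicates 1 and 2 chondrocytes had 0 UMIs, from 39 and 36 cells, and osteoblasts 5.05 and 11.9 CPM. Over all libraries Col8a1 was not called (edgeR quasi-likelihood test, log2 fold change 0.66 ± 0.69, adjusted p = 0.508), and whether this difference differs between the libraries was not tested.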

How the results depend on the processing

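Populations were paired within libraries by the library block of each fit. Over 1604 alternative values of 133 named collagen results, 1459 kept direction and call, 139 kept direction but lost the call and 6 reversed. The reversed ones were log2 fold changes between endothelial subsets. Col2a1 was at -0.18 with doublets removed for arterial against capillary cells and ranged from -0.0500 (without the Pdgfra-GFP library) to 2.13 with a library left out, and against sinusoidal cells it was at -0.38 and ranged from -0.0841 to 1.95. Col10a1 ranged from -4.50 to 0.35 for arterial and from -3.77 to 1.35 for capillary against sinusoidal cells, each highest without metaphyseal replicate 2. The count of called collagen genes for septoclasts (10) was 4 with at least 20 cells in a sum (which leaves 1 library of septoclasts, assumed to vary like the other populations), 6 with DESeq2's Wald test, 4 with clusters, 4 without the block and 19 without a low-count filter, and 4 (without metaphyseal replicate 2) to 8 with a library left out. DESeq2's size factors ended the septoclast calls of Col6a1, Col6a2 and Col6a3. For Lepr stromal cells (10) it was 16 without the filter and 9 to 15 with a library left out. For late osteoblasts (15) it was 8 with the Wald test, 0 without the block in edgeR (11 at an unadjusted p under 0.05) and 6 (without metaphyseal replicate 2) to 17 with a library left out. For arterial against capillary cells (8) it was 3 with the Wald test, 3 without the block, 13 without the filter and 5 (without metaphyseal replicate 1) to 9 with a library left out. For capillary against sinusoidal cells (9) it was 5 without the block and 8 to 10 with a library left out. For mural cells (14) it was 8 with at least 20 cells in a sum (again 1 library) and 11 to 16 with a library left out. The other counts stayed within 1.5 times of the main one. The share of all genes called under each alternative is not given here. These moves can thus not be read as particular to collagen genes. The cause was not tested. Fibroblast ratios rest on 1 library, so fits with DESeq2, without the block or with a library left out were not run. The population with the highest level was the same for 30 of 30 collagen genes after subtraction of free RNA and under the stricter gate, for 29 with clusters and for 22 without the Pdgfra-GFP library, which held the fibroblasts. The septoclast and mural sums rest on few cells, 10 to 19 in each metaphyseal library.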
